A study of Mus musculus with 2 samples.

Results

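The nuclear-encoded subunits of respiratory complexes III, IV and V were taken as 33 genes chosen by symbol: 8 of cytochrome bc1 (complex III), 10 of cytochrome c oxidase (complex IV) and 15 of ATP synthase (complex V), of 31053 genes listed in the count matrices. All 33 were found. The symbol Atp5o stood on 2 rows, of which the one with 1392 UMIs was used and the one with 1 UMI was not. The genes lie on 16 chromosomes, 1 of them (Cox7b) on chromosome X.

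Single-cell libraries (10x Genomics droplets) had been made from papain-dissociated tissue of C57BL/6 mice aged 10 weeks, labelled as substantia nigra pars compacta, the midbrain region whose dopamine neurons are lost in Parkinson's disease. The MNPQ library came from mice that had intraperitoneal paraquat (10 mg/kg) followed by maneb (30 mg/kg) 2 times weekly over 3 weeks; this pair of pesticides is used to model the disease. The control library came from mice that one label calls untreated, whereas the treatment protocol describes saline. Both libraries carry the disease model label, and each pooled several mice: the protocol speaks of 3 males chosen per group, the sex label of males and females. There was 1 library per group, so all differences below compare 2 libraries and no test was possible. Expression was counted in UMIs (unique molecular identifiers, each standing for 1 captured RNA molecule). A cell needed 200 genes or more and no more than 20% of its UMIs from mitochondrial DNA, which left 882 cells and 2002640 UMIs in the control and 854 cells and 1958634 UMIs in the MNPQ library. Median depth was 974 and 945.5 UMIs per cell, and 2 barcode sequences occurred in both libraries. Cells were grouped without use of the 33 genes, and a class is written with "-like" because its name rests on marker genes. The defining markers of the labelled region were nearly absent: Th, the rate-limiting enzyme of dopamine synthesis, had 1 control UMI and 0 MNPQ UMIs, and the dopamine transporter gene Slc6a3 likewise 1 and 0. With 0 of 150 neuron-like MNPQ cells positive, a share of up to 2.00% of cells with a UMI is allowed, so the neuron-like cells are described as neurons of this tissue and not as dopamine neurons.

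Complexes III to V carry the second stretch of oxidative phosphorylation. Complex III passes electrons from ubiquinol to cytochrome c, complex IV passes them on to oxygen, and both pump protons that complex V lets flow back to make ATP. Each holds a few core subunits encoded in mitochondrial DNA and many encoded in the nucleus, whose transcripts must be made, translated in the cytosol and imported. Paraquat is a redox cycler that generates superoxide, and inhibition of complex III has been described for maneb's active ingredient. Promoters of such nuclear genes are known for sites of the respiratory factor NRF1, of ETS family factors (NRF2, also called GABP) and of YY1.

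Promoter windows from 250 bases before to 50 bases after the annotated start were read from RefSeq (build GRCm38.p6) for 26 of the 33 genes; Uqcrb, Uqcrc2, Uqcrq, Cox4i1, Cox6c, Atp5a1 and Atp5f1 had no entry. Exact letters were searched on both strands. The NRF1 core GCGCATGC was held by 6 of the 26 windows (23.1%), against 2.80% of all 27025 windows in the table. The ETS letters CCGGAAG were held by 9 (34.6%, against 9.12%), and the YY1 letters AAGATGG by 2 (7.69%, against 6.48%). At least 1 of the 3 was in 13 of the 26 windows, against 17.0% of all. A match is a description of the sequence and was not measured as a bound site. Below is 1 window per complex, that of the gene with the highest MNPQ over control ratio in astrocyte-like cells among those with a match, with matches in capitals: Uqcrh at chr4:116075021-116075320, Cox6a1 at chr5:115348909-115349208 and Atp5g2 at chr15:102670998-102671297, all on the minus strand and written 5′ to 3′. The Atp5g2 window lies inside the gene as placed by GENCODE M21 (chr15:102662864-102672352), so it depends on which annotated start is taken. Uqcrh shows the ETS letters on the opposite strand near its start. Cox6a1 has both the NRF1 and the ETS letters, and its NRF1 run, like that of Atp5g2, reads the core on both strands. Cox7b, Cox5a and Atp5g1, with the highest ratios in astrocyte-like cells, had windows without any of the 3.
Uqcrh: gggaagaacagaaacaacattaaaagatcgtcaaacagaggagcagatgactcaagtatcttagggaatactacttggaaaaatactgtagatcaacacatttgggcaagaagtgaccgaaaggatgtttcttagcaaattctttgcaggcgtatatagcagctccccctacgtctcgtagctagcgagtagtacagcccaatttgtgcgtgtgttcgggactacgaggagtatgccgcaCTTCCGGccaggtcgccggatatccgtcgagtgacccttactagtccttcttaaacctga
Cox6a1: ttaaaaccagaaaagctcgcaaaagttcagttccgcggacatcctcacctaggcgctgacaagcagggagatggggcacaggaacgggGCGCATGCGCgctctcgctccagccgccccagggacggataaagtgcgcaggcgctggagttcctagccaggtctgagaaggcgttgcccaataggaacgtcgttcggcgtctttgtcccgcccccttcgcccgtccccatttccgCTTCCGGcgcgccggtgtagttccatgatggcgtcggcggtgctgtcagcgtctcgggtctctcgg
Atp5g2: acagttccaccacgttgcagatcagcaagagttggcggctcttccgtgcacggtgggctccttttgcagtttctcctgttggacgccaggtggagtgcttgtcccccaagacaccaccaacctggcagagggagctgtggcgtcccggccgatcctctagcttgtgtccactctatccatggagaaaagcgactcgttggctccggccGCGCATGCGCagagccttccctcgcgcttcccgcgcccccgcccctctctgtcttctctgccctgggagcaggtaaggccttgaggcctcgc

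Of the 6 classes that had 30 cells or more on each side, astrocyte-like cells gave the largest share of their UMIs to these 33 genes and microglia-like cells the smallest, in both libraries. In the control library the share was 2.03% in astrocyte-like, 1.83% in pericyte-like, 1.55% in oligodendrocyte-like, 1.48% in endothelial-like, 1.41% in neuron-like and 1.17% in microglia-like cells. The MNPQ library gave 2.74%, 2.11%, 1.64%, 1.64%, 1.76% and 1.17% in the same order of classes. Exact binomial 95% intervals, which cover counting error only, overlapped in the control library between oligodendrocyte-like (1.51% to 1.60%) and endothelial-like cells (1.44% to 1.53%), and between endothelial-like and neuron-like cells (1.36% to 1.47%). In the MNPQ library the neuron-like cells (1.70% to 1.83%) stood above both of these classes. With all depths summed, the astrocyte-like and pericyte-like classes at the top and the microglia-like class at the bottom thus kept their places. The middle ones did not. Among cells of at least 1000 UMIs, pericyte-like cells had 1.83% and astrocyte-like cells 1.81% in the control library, and 2.08% and 2.63% in the MNPQ library. Among control cells under 1000 UMIs the microglia-like share was 1.54%, beside 1.55% in endothelial-like and 1.575% in neuron-like cells. The 6 classes held 319 and 295 astrocyte-like, 123 and 150 neuron-like, 193 and 139 microglia-like, 82 and 132 oligodendrocyte-like, 74 and 68 endothelial-like, and 31 and 31 pericyte-like cells (control and MNPQ). In smaller classes the share was 2.71% and 2.65% in 9 and 17 smooth muscle-like cells, above the astrocyte-like value in the control library, 1.70% and 1.87% in 29 and 6 ependymal-like cells, and 0.673% and 1.22% in 18 and 9 precursor cells of the oligodendrocyte lineage. The 4 control cells named vascular fibroblast-like held 42 UMIs of the 33 genes, too few to describe.

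**Figure D1:**
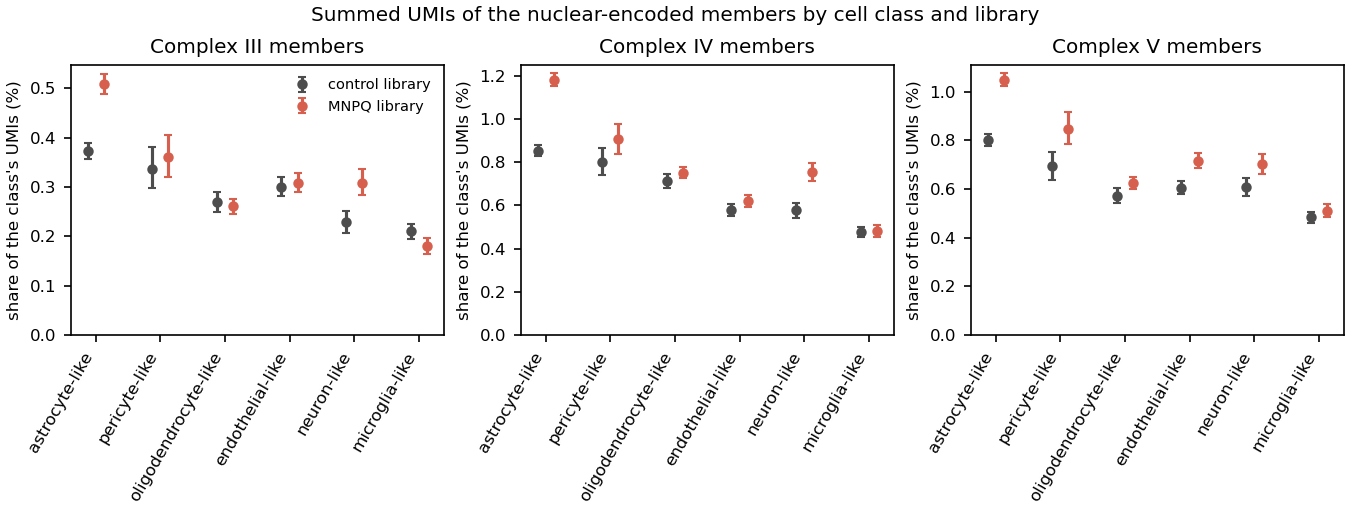
Summed UMIs of the 8 complex III, 10 complex IV and 15 complex V genes as a percentage of all UMIs of a cell class (y axis) in 6 classes (x axis), for the control and the MNPQ library; bars are exact binomial 95% intervals. Astrocyte-like cells are highest, with the MNPQ library well above the control library in each complex (complex IV 0.853% and 1.18%), while microglia-like values lie close together (complex IV 0.477% and 0.480%).

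Gene by gene, the mean level of both libraries (CPM, a gene's UMIs scaled to a fixed total of the class; not divided by length, so compared between classes and not between genes) was highest in astrocyte-like cells for 23 of the 33 genes and lowest in microglia-like cells for 24. Uqcr10, a small subunit of complex III, spanned the widest range, with 722 and 855 CPM in astrocyte-like cells of the control and MNPQ library against 193 and 182 CPM in microglia-like cells, a ratio of the means of 4.20. Cox5a, a complex IV subunit that faces the matrix, followed with 479 and 873 CPM in astrocyte-like against 182 and 152 CPM in microglia-like cells (ratio 4.05). Atp5o, the OSCP subunit that joins the stalk of ATP synthase to its head, had 504 and 632 CPM against 207 and 171 CPM (3.01). At the even end stood Atp5g1 (ratio of highest to lowest class 1.52), Cox6b1 (1.52) and Uqcrh (1.53), the hinge protein of complex III. For Atp5g1 and Cox6b1 neither the highest nor the lowest class was the same in both libraries.

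Not every gene followed the astrocyte-first order. Cox8a, a short complex IV subunit, had its highest mean in pericyte-like cells (1667 and 2066 CPM) and its lowest in endothelial-like cells (607 and 634 CPM), although the 2175 CPM of astrocyte-like cells in the MNPQ library exceeded the pericyte-like value there. Uqcrb, the ubiquinone-binding protein of complex III, was highest in pericyte-like cells in both libraries (680 and 869 CPM). Atp5j, coupling factor 6 of the ATP synthase stalk, was highest in endothelial-like cells (1109 and 1279 CPM against 449 and 432 CPM in microglia-like cells), as was Atp5e, the epsilon subunit (519 and 712 CPM). Atp5g2 alone had its highest mean in microglia-like cells (411 and 474 CPM), and Uqcrc2 alone in neuron-like cells (254 and 260 CPM). In the MNPQ library by itself astrocyte-like cells were higher for both, at 477 CPM for Atp5g2 and 294 CPM for Uqcrc2.

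**Figure D2:**
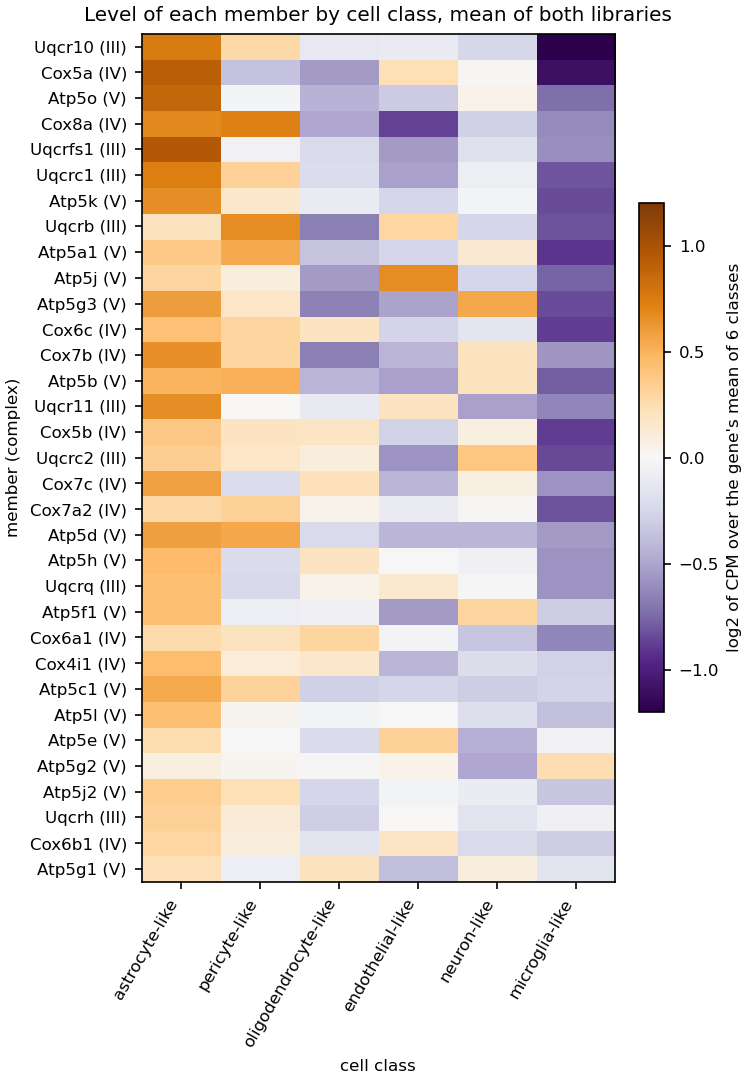
Level of each of the 33 genes (rows, with its complex) in 6 cell classes (columns), as the log2 of the mean CPM of both libraries over the gene's mean of the 6 classes; rows run from the widest to the narrowest ratio between classes. Orange marks the classes above a gene's mean; the astrocyte-like column is highest for 23 genes and the microglia-like column lowest for 24.

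Paralogs of 2 subunits split by class. Cox4i2 encodes the alternative form of COX4, a regulatory subunit of complex IV that is known from oxygen-sensing cells. It made up 89 of 189 Cox4 UMIs (47.1%, exact 95% interval 39.8% to 54.5%) in pericyte-like cells of the control library and 81 of 187 (43.3%, 36.1% to 50.7%) of the MNPQ library. In smooth muscle-like cells it was 14 of 67 (20.9%) and 36 of 176 (20.5%). In the other 5 compared classes its share was at most 0.840%, with 0 of 365 and 0 of 278 Cox4 UMIs in microglia-like cells, where the upper exact bounds were 1.01% and 1.32%. The pericyte-like shares of both libraries overlapped, so the split went with the class and not with the library. Muscle-type forms of other subunits were scarce: Cox6a2 had 9 and 6 UMIs, Cox7a1 18 and 13 and Cox8b 0 and 2 over all kept cells.

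The c ring of ATP synthase, through which protons pass, is built from a mature protein that Atp5g1, Atp5g2 and Atp5g3 all encode. Atp5g3 gave 31.2% and 28.1% of their UMIs in astrocyte-like and 29.5% and 38.0% in neuron-like cells (control and MNPQ). In microglia-like cells it gave 13.2% and 14.4%, in oligodendrocyte-like cells 15.3% and 15.5%, and in endothelial-like cells 17.1% and 20.2%. Within each library the astrocyte-like and neuron-like intervals lay above those of microglia-like and oligodendrocyte-like cells. Microglia-like cells drew most on Atp5g2 (55.3% and 53.0%). In endothelial-like cells the Atp5g1 part was 36.7% (30.1% to 43.6%) for control and 23.9% (18.7% to 29.7%) for MNPQ cells, intervals that do not overlap. These 3 genes are close paralogs, and how reads that match more than 1 of them were counted is not given in the sources used here.

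**Figure D3:**
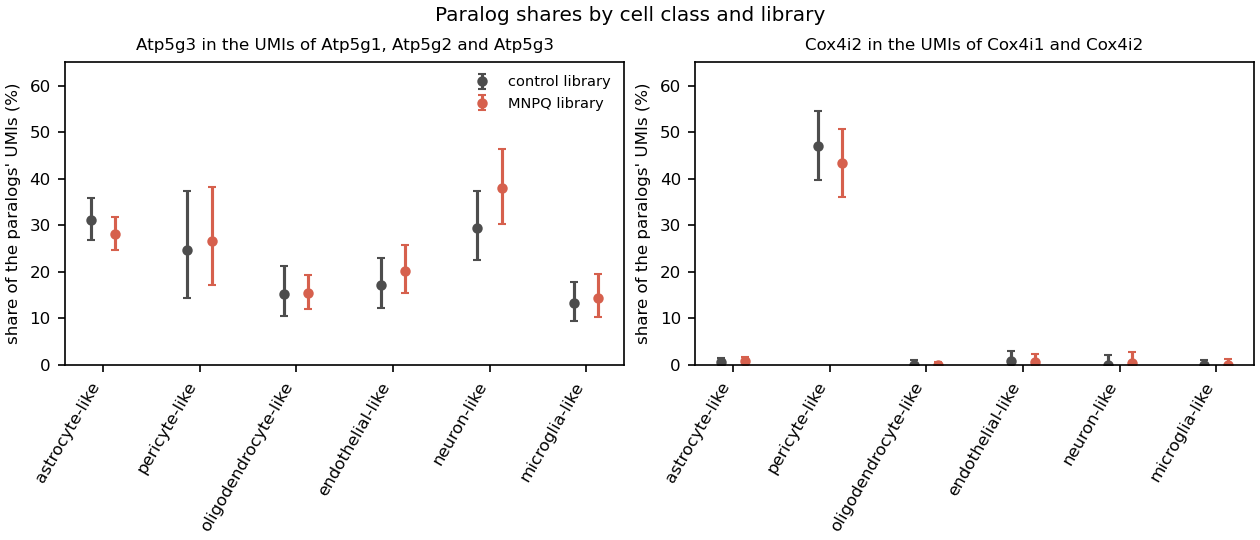
Share of Atp5g3 in the UMIs of the 3 c-subunit genes (left) and of Cox4i2 in the UMIs of Cox4i1 and Cox4i2 (right), in percent (y axis) for 6 cell classes (x axis) and both libraries; bars are exact binomial 95% intervals. Cox4i2 stands at 47.1% and 43.3% in pericyte-like cells and at or under 0.840% elsewhere, and the 2 libraries lie close to each other in most classes.

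In astrocyte-like cells every one of the 33 genes was higher in the MNPQ library. Their median log2 ratio of MNPQ over control was 0.43, and 21 of 33 were higher by at least 1.3-fold, the fold used to count genes here, while none was lower by that much. Of all 2515 genes with at least 60 UMIs in this class, 29.8% were higher and 15.8% lower by at least 1.3-fold, and their median log2 ratio was 0.17. All 33 genes were still higher, with a median of 0.26, when ratios were taken relative to that median. The summed shares differed in the same direction for the 3 complexes, from 0.372% to 0.508% for complex III, from 0.853% to 1.18% for complex IV and from 0.802% to 1.05% for complex V. The log2 ratios of these sums were 0.45 (exact 95% counting interval 0.37 to 0.54), 0.47 (0.41 to 0.53) and 0.39 (0.33 to 0.45). Malat1, a nuclear noncoding RNA, took 8.63% of control and 5.01% of MNPQ UMIs of this class, and mitochondrially encoded genes took 7.98% and 7.05%. With both of these and the hemoglobin, Gm42418 and AY036118 counts taken out of the totals, the median was 0.34 and 33 of 33 genes were higher.

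Within complex III, 7 of 8 genes passed 1.3-fold. Uqcrb (chr13:66900617-66905378, minus strand, build mm10) went from 223 to 354 UMIs, or 424 to 698 CPM, a log2 ratio of 0.72 (0.47 to 0.97). Uqcrh stood at 532 and 786 CPM (0.56), and Uqcr11, the complex III gene with the most UMIs, at 732 and 983 CPM (0.43). The catalytic Rieske iron-sulfur protein gene Uqcrfs1 had 312 and 414 CPM (0.41), and the core protein genes Uqcrc1 and Uqcrc2 had ratios of 0.45 and 0.52. Uqcr10, at 722 and 855 CPM (0.24), was the one below the fold.

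Complex IV held the widest spread among the genes. Cox7b (chrX:106015700-106022450, plus strand), a small membrane subunit, went from 148 to 285 UMIs, or 281 to 562 CPM, a log2 ratio of 1.00 (0.71 to 1.29). Cox5a (chr9:57521274-57532426, plus strand) went from 252 to 443 UMIs and from 479 to 873 CPM, a log2 ratio of 0.87 (0.64 to 1.09). Cox6a1 (730 and 1125 CPM, 0.62) and Cox8a (1479 and 2175 CPM, 0.56) followed, and Cox7c, Cox7a2 and Cox5b had ratios of 0.52, 0.48 and 0.41. At the other end stood Cox6c, with 1160 and 1342 CPM and a ratio of 0.21 (0.05 to 0.37), the lowest of all 33, then Cox6b1 (0.27) and Cox4i1 (1521 and 1860 CPM, 0.29).

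Of the 15 complex V genes, 7 were past the fold. Among the c-subunit genes Atp5g1 (chr11:96068852-96075670, minus strand) went from 125 to 228 UMIs and from 238 to 449 CPM, a log2 ratio of 0.92 (0.60 to 1.25), with Atp5g2 at 0.61 and Atp5g3 at 0.54. In the catalytic head, Atp5a1 (alpha) had 451 and 698 CPM (0.63), whereas Atp5b (beta), its partner in every active site, had 928 and 1109 CPM (0.26, 0.08 to 0.44). Atp5e, Atp5d and Atp5c1 of the central stalk had ratios of 0.50, 0.37 and 0.36. In the peripheral stalk Atp5f1 and Atp5h stood at 0.43 and 0.42, Atp5o at 0.33 and Atp5j at 0.22 (855 and 995 CPM). Of the small membrane subunits Atp5l had 0.34, Atp5k 0.27 and Atp5j2 0.24 (0.02 to 0.46).

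**Figure D4:**
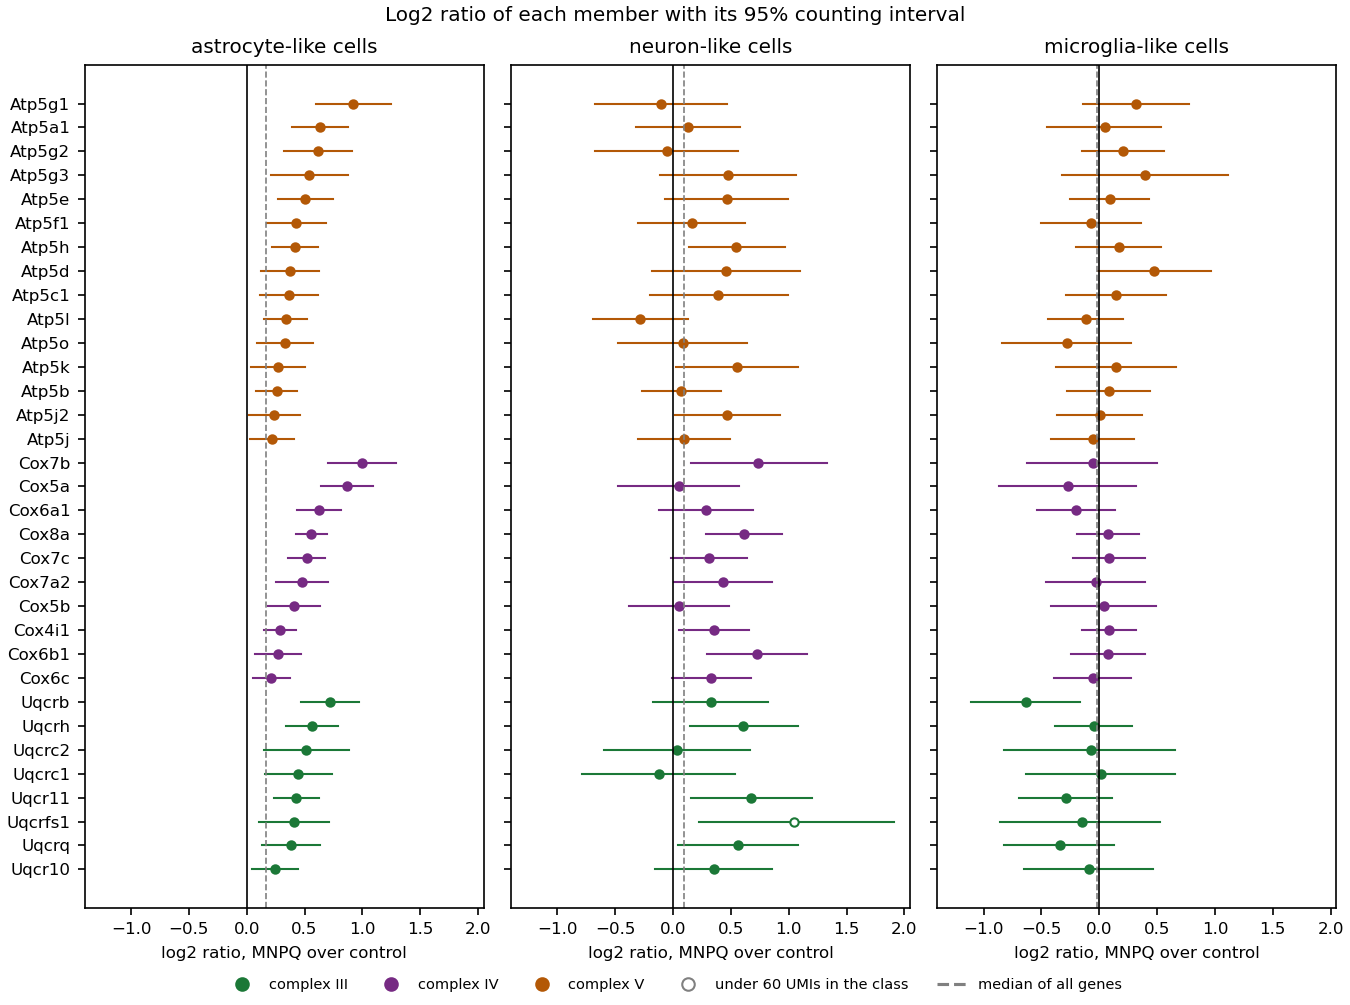
Log2 ratio of MNPQ over control (x axis) for each of the 33 genes (y axis, ordered within its complex by the astrocyte-like ratio), with a panel each for the classes named astrocyte-like, neuron-like, and microglia-like; lines are exact 95% counting intervals and the dashed line is the median of all genes with at least 60 UMIs. All points lie right of 0 in astrocyte-like cells, 28 of the 32 filled points do in neuron-like cells, and microglia-like points scatter around 0.

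The astrocyte-like difference was larger in the cells with more UMIs. In the 133 and 104 cells with at least 1000 UMIs the 33 genes took 1.81% of control and 2.63% of MNPQ UMIs, with a median log2 ratio of 0.56 and 33 of 33 higher. In the 186 and 191 cells under 1000 UMIs the shares were 2.75% and 3.06%, the median was 0.17 and 26 of 33 were higher. Of all genes with at least 20 UMIs, 56.3% of 5071 were higher in the deeper cells (median 0.09). In the shallower cells 55.7% of 1763 were higher (median 0.06). The summed log2 ratio of the 33 genes was 0.54 (0.50 to 0.59) in the deeper and 0.15 (0.09 to 0.22) in the shallower cells, intervals that do not overlap; this difference was not tested. Cox7b had 91 and 216 UMIs in the deeper cells (log2 ratio 1.33, 0.97 to 1.70) and 57 and 69 in the shallower ones (0.22, -0.31 to 0.75). Atp5g1 had 76 and 176 UMIs (1.298) and 49 and 52 UMIs (0.03), whereas Cox5a was higher in both, with 0.95 in the deeper and 0.61 in the shallower cells. The clusters gave the same picture: cluster 7, with 111 and 67 cells, had a median ratio of 0.60, and cluster 1, with 208 and 228 shallow cells, had 0.20. The medians of all genes with at least 20 UMIs were 0.13 in cluster 7 and 0.05 in cluster 1. Depth itself moved with the library here: the deeper cells had medians of 2116 control and 3384.5 MNPQ UMIs, with Malat1 at 10.9% and 6.60% and mitochondrially encoded genes at 7.02% and 5.64%. With every cell thinned to 1000 UMIs, which leaves out the shallower cells, the median was 0.74, and with every cell thinned to 500 UMIs it was 0.31.

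**Figure D5:**
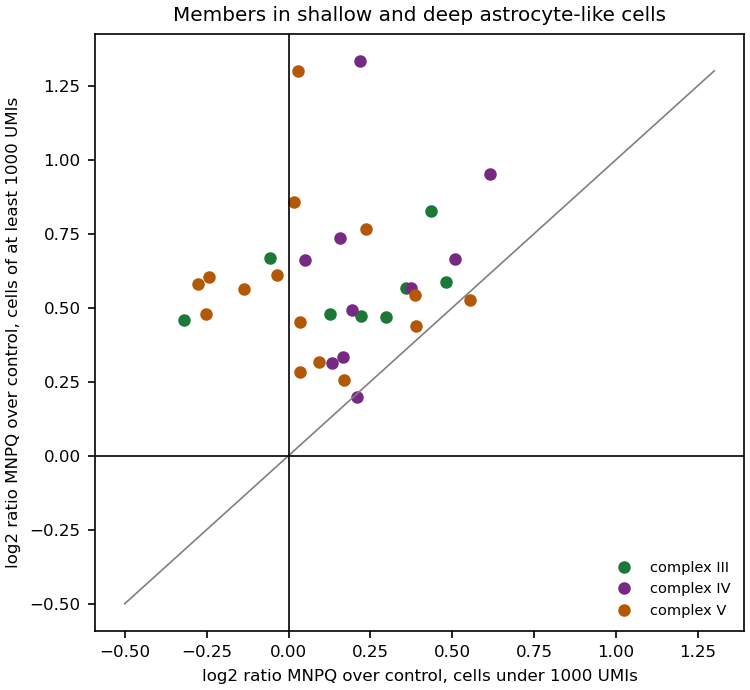
Log2 ratio of MNPQ over control of each of the 33 genes in astrocyte-like cells under 1000 UMIs (x axis) and with at least 1000 UMIs (y axis), coloured by complex; the grey line marks equal ratios. All points lie above 0 on the y axis and most lie above the line, with Cox7b (0.22 and 1.33) and Atp5g1 (0.03 and 1.298) farthest from it.

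The share of astrocyte-like cells with at least 1 Cox7b UMI was 29.5% of control and 41.0% of MNPQ cells. After each cell was thinned to 500 UMIs it was 16.0% (12.1% to 20.5%) and 21.7% (17.1% to 26.8%), intervals that overlap. Cox7b does not stand for every gene here. Thinned shares of Cox6a1 were 30.7% (25.7% to 36.1%) and 47.1% (41.3% to 53.0%), intervals that do not overlap. Those of Uqcr10 went the other way, at 32.0% and 29.5%. No class lacked Cox7b, so its background from free RNA could not be read from these data. The per-cell share of the 33 genes had a median of 2.23% (quartiles 1.36% and 3.11%) in control and 3.01% (2.38% and 3.52%) in MNPQ astrocyte-like cells. RNA of other classes was present at a low level: oligodendrocyte markers summed to 2532 and 2918 CPM in astrocyte-like cells, against 82147 and 74556 CPM in oligodendrocyte-like cells, with 1 and 0 of 12 markers at 0. Astrocyte markers themselves summed to 28654 and 24886 CPM. The part of either in the ratios was not tested.

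Neuron-like cells also had more of these transcripts in the MNPQ library. Of the 32 genes with at least 60 UMIs (Uqcrfs1 had 57), 28 were higher, 14 by at least 1.3-fold and none lower by that fold, with a median log2 ratio of 0.34; over all 1013 genes 27.0% were higher and 18.2% lower by that fold, with a median of 0.09. The summed share went from 0.228% to 0.309% for complex III (log2 ratio 0.43, 0.25 to 0.62), from 0.577% to 0.755% for complex IV (0.39, 0.27 to 0.51) and from 0.608% to 0.701% for complex V (0.21, 0.09 to 0.33). Cox7b was again the highest, with 232 and 387 CPM (0.74, 0.16 to 1.33), followed by Cox6b1 at 421 and 695 CPM (0.72, 0.29 to 1.16) and Uqcr11 at 292 and 465 CPM (0.67). Uqcrh had 373 and 568 CPM (0.61), and Cox4i1, with 945 and 1208 CPM, a ratio of 0.35. The direction turned for Cox7b with cells thinned to 1000 UMIs (-0.0286) and for Uqcrh in the cells under 1000 UMIs (-0.0826). The remaining 4 genes were lower, with intervals that span 0: Atp5l at 654 and 538 CPM (-0.28, -0.69 to 0.13), Uqcrc1 (-0.12), Atp5g1 (-0.10) and Atp5g2 (-0.06). Atp5g1 was thus among the highest in astrocyte-like cells and among the lowest here, a difference that was not tested. Atp5b, with 810 and 852 CPM (0.07), and Cox5a (0.05) stood near the median of all genes. Malat1 took 6.30% and 2.67% of the UMIs of these cells, and oligodendrocyte markers summed to 1944 and 3359 CPM with 1 and 0 of 12 at 0; their part was not tested.

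Microglia-like cells showed no shift of the set as a whole. The share of the 33 genes was 1.17% in both libraries (log2 ratio 0.00, -0.06 to 0.07), 17 of 33 were higher (47.1% of all genes were), the median ratio was 0.01, and 2 were higher and 1 lower by at least 1.3-fold, against 10.9% and 16.5% of all 1419 genes. Complex III had 7 of 8 genes lower, and its share was 0.210% and 0.180% (log2 ratio -0.22, -0.39 to -0.05). Without Uqcrb, left out after its values were seen, the log2 ratio of the sum was -0.15 (-0.33 to 0.03, from 648 and 419 UMIs). Uqcrb had the lowest ratio, with 123 and 57 UMIs, or 335 and 216 CPM (-0.63, -1.11 to -0.17), then Uqcrq at 289 and 227 CPM (-0.34) and Uqcr11 at 384 and 315 CPM (-0.29); Uqcrh stood at 517 and 500 CPM (-0.05). Complex IV was level, at 0.477% and 0.480% (0.01), with Cox4i1 at 994 and 1054 CPM (0.08). Of the complex V genes 11 of 15 were higher, with Atp5d at 196 and 273 CPM (0.48, -0.01 to 0.97), Atp5g3 at 98.0 and 129 CPM (0.40), Atp5g1 at 234 and 292 CPM (0.32) and Atp5l at 547 and 504 CPM (-0.12). The differences between the 3 complexes were not tested. Oligodendrocyte markers summed to 2690 and 3674 CPM in this class (7 of 12 higher, 1 and 1 at 0), and their part was not tested. Hemoglobin transcripts took 1.17% of control and 0.00910% of MNPQ UMIs in this class; their part was not tested beyond the scaling given with the alternatives, which turned the median to -0.014.

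Oligodendrocyte-like and endothelial-like cells lay between these. In oligodendrocyte-like cells 22 of 33 genes were higher (55.4% of all genes were), 2 higher and 2 lower by at least 1.3-fold (16.9% and 14.0% of all 1809 genes), and the median ratio was 0.07. The lower ones were the core protein genes of complex III, Uqcrc1 at 245 and 177 CPM (-0.47, -0.97 to 0.03) and Uqcrc2 at 241 and 179 CPM (-0.43, -0.93 to 0.08); the higher ones were Atp5o at 189 and 272 CPM (0.52, 0.03 to 1.03) and Atp5g2 at 320 and 421 CPM (0.40, 0.01 to 0.79). Uqcr11 stood at -0.19, Atp5g3 at 0.32, and Cox4i1 (1394 and 1367 CPM) and Atp5h (703 and 686 CPM) at -0.03 each. In cells under 1000 UMIs the directions of Atp5o (-0.56) and Atp5g2 (-0.20) turned. Endothelial markers in oligodendrocyte-like cells summed to 90.8 and 498 CPM (12 of 13 higher, 7 and 1 at 0), and Malat1 took 6.19% and 4.08% of the UMIs; their part was not tested. In endothelial-like cells 27 of 33 were higher (51.5% of all genes were), 6 higher and 2 lower by the fold (13.7% and 16.9% of all 1804 genes), with a median of 0.12. Complex V accounted for 5 of these 6: Atp5a1 at 307 and 435 CPM (0.50, 0.11 to 0.90), Atp5e at 519 and 712 CPM (0.46, 0.15 to 0.76), Atp5g2 at 331 and 444 CPM (0.43), Atp5b (0.42) and Atp5g3 (0.39). The remaining one was Cox7b at 171 and 229 CPM (0.42, -0.12 to 0.97). Atp5a1 went to -0.10 with cells thinned to 500 UMIs and to -0.38 in the cells under 1000 UMIs, where Atp5g2 went to -0.16. The lower ones were Atp5g1 at 263 and 190 CPM (-0.47, -0.98 to 0.04) and Uqcrfs1 at 147 and 110 CPM (-0.42); Uqcrc2 followed at -0.19, while Atp5j (0.21), Cox4i1 (0.28) and Uqcr11 (0.14) were higher by less than the fold. Hemoglobin took 1.08% and 2.82% of endothelial-like UMIs, and its part was not tested beyond that scaling, under which the median was 0.11. Astrocyte markers summed to 403 and 821 CPM in these cells (13 of 15 higher, none at 0), and Malat1 took 4.81% and 2.76%; the part of the astrocyte markers was not tested.

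Pericyte-like cells were few, and 22 of the 33 genes reached 60 UMIs. Of these 15 were higher, 5 by at least 1.3-fold and none lower by it (22.5% and 12.9% of all 373 genes), and the median of 0.11 was close to the 0.12 of all genes. Atp5e had 372 and 605 CPM (0.70, 0.00 to 1.43), Atp5d 385 and 618 CPM (0.68) and Atp5j 628 and 974 CPM (0.63), while Cox7c stood at 795 and 658 CPM (-0.27), Atp5a1 at -0.23 and Atp5j2 at -0.18. The genes with the most UMIs in their complex were Uqcrb (0.35), Cox8a (0.31) and Atp5b (0.09). Astrocyte markers in these cells summed to 872 and 2277 CPM (14 of 15 higher, 1 and 1 at 0), and Malat1 took 9.61% and 5.76% of the UMIs; their part was not tested. Summed over all kept cells, whatever their class, all 33 genes were higher, 4 of them by at least 1.3-fold and none lower by it, where 15.8% and 21.3% of all 8384 genes were. The median was 0.26 beside -0.0045 for all genes. In such a sum the number of cells of a class and the RNA per cell cannot be told apart, and the libraries differed in class numbers.

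The mitochondrially encoded partners in the same complexes did not follow the nuclear genes in astrocyte-like cells. These are cytochrome b of complex III, the 3 catalytic subunits of complex IV and subunits 6 and 8 of ATP synthase. Of the 5 with at least 60 UMIs all were lower, from mt-Co2 at -0.11 to mt-Cytb at -0.19. The ratio of nuclear to mitochondrially encoded UMIs went from 0.343 to 0.514, a log2 ratio of 0.59 (0.54 to 0.63), with 0.64 for complex III, 0.62 for complex IV and 0.52 for complex V. These values pool all depths. All mitochondrially encoded genes together took 11.1% of control and 11.2% of MNPQ UMIs in astrocyte-like cells under 1000 UMIs. In those of at least 1000 UMIs they took 7.02% and 5.64%, a difference by depth that was not tested. In neuron-like cells with all depths pooled both kinds were higher (5 of 5 mitochondrially encoded genes, median 0.27). The direction turned with depth. All mitochondrially encoded genes took 12.3% of control and 10.5% of MNPQ UMIs in neuron-like cells under 1000 UMIs. In those of at least 1000 UMIs they took 6.02% and 7.99%, which was not tested either. The pooled ratio of nuclear to mitochondrially encoded UMIs was 0.25 and 0.265 in neuron-like cells (log2 ratio 0.08, with an interval that includes 0 and reaches 0.17). It was 0.502 and 0.469 in microglia-like cells (-0.10, -0.18 to -0.02), 0.364 and 0.359 in oligodendrocyte-like, 0.577 and 0.659 in endothelial-like (0.19, 0.12 to 0.26) and 0.645 and 0.633 in pericyte-like cells. Astrocyte-like cells thus had the largest value of the 6, and the difference between classes was not tested. The filter on mitochondrial UMIs bears directly on the denominator: without any cell filter the astrocyte-like log2 ratio was 0.64. Over all kept cells a stricter filter gave a lower ratio, which is listed with the alternatives.

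Other parts of the same machinery were read from lists of the remaining genes. In astrocyte-like cells, where 63.7% of all genes were higher, Cycs, the cytochrome c that links complexes III and IV, had a ratio of 0.82 (0.49 to 1.16, from 119 and 203 UMIs), and Cyc1, the cytochrome c1 of complex III, 0.35. In neuron-like cells Cycs had -0.41 (-1.02 to 0.18) and in microglia-like cells -0.57 (-1.25 to 0.08), with intervals that include 0; the difference between classes was not tested. Nuclear subunits of complex I were higher for 35 of 36 genes in astrocyte-like cells, 17 by at least 1.3-fold, with a median of 0.37, from Ndufa10 at -0.02 to Ndufa8 at 0.76. Complex II was higher for 4 of 4 genes (median 0.39), from Sdha at 0.05 to Sdhc at 0.69. Small extra subunits of ATP synthase went with the set (Usmg5 0.56, 2010107E04Rik 0.65), while its inhibitor Atpif1 was at -0.13. Assembly factors of complexes III to V had 9 of 32 genes measured and 7 higher (median 0.15), from Cox20 at -0.41 to Cox14 at 0.66. Among regulators of mitochondrial biogenesis only Ppargc1a reached 60 UMIs, at -0.45. Mitochondrial carriers and channels (7 of 7 higher, median 0.41, Slc25a4 0.23, Vdac1 0.56) and glycolysis (13 of 15, 0.37, Pfkm -0.30 to Pgam1 0.65, with Aldoc at 0.22) had larger parts higher than all genes. The tricarboxylic acid cycle had 8 of 11 higher (72.7%) and 27.3% past the fold, near the 63.7% and 29.8% of all genes, with a median of 0.25, from Idh3b at -0.29 to Sucla2 at 0.85. Cytosolic ribosomal proteins, short abundant transcripts outside mitochondria, were higher for 74 of 74 genes with a median of 0.33. Several lists of abundant transcripts outside complexes III to V thus had higher medians in this class than the 0.17 of all genes.

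In other classes the lists were set beside the share of all genes that was higher: 47.1% in microglia-like, 59.5% in neuron-like, 55.4% in oligodendrocyte-like and 51.5% in endothelial-like cells. In microglia-like cells complex I had 9 of 32 genes higher (median -0.13), from Ndufb3 at -0.89 to Ndufv2 at 0.63, while ribosomal proteins were higher for 68 of 77 (0.16). Of the 32 complex I genes 8 were lower by at least 1.3-fold, beside 16.5% of all 1419 genes in this class. Assembly factors there had 1 of 5 higher, with the copper chaperone Cox17 at -0.61. In neuron-like cells complex I had 21 of 30 higher (0.17), ribosomal proteins 66 of 71 (0.34) and glycolysis 8 of 12 (0.17), and the carriers were level (3 of 6, 0.05). In oligodendrocyte-like cells complex I had 16 of 36 higher (-0.02) against 74 of 74 ribosomal proteins (0.33). In endothelial-like cells complex I had 21 of 33 higher (0.04) and ribosomal proteins 72 of 75 (0.23). Over all kept cells 7 of the 12 transcriptional regulators named for this program were measured, and 2 of the 7 were higher. Their median was -0.39, beside -0.0045 for all genes, from Gabpa, which encodes the ETS factor subunit, at -0.68 to Esrra at 0.42. With a minimum of 20 UMIs in place of 60 the regulators' median was 0.03.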

How the data were processed

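Deposited values were UMI counts per gene and cell barcode in 2 matrices, made with Cell Ranger 3.0.2 (per the file headers) on build mm10 per the submitters' processing notes; the annotation and the calling of barcodes are not given in the sources used here. The matrices held 1105 control barcodes with 2209810 UMIs and 965 MNPQ barcodes with 2061939 UMIs. Gene positions came from GENCODE M21, where 31011 of 31053 identifiers were found.

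Kept cells of both libraries were scaled to 10000 UMIs, logged and clustered with scanpy 1.11.5 (2000 variable genes without the 33 genes, other respiratory, mitochondrial and ribosomal genes; 30 components; 15 neighbours; Leiden resolution 1.0; mixed clusters of 40 cells or more split again with 8 neighbours). This gave 14 clusters, which were named from 14 marker lists, at least 3 markers of 2-fold being needed, as 10 classes with 0 clusters unnamed. Cells called doublets by Scrublet were kept. UMIs were summed per class and library and divided by the class total (CPM). Classes were compared if each library gave 30 cells or more. Log2 ratios have exact conditional binomial 95% intervals, shares exact (Clopper-Pearson) ones; all reflect counting error alone, without the spread of cells, mice or libraries. The ratio and interval code was tested on simulated data. Lists were described by genes with at least 60 UMIs over both libraries.

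Genes named in a class were the 3 highest and 3 lowest ratios and the gene of each complex with the most UMIs, and over classes the 3 widest and 3 narrowest; of other lists, the highest, lowest and most abundant gene were available for naming, and some are left out. Other genes of the 33 are given to account for all. The members and lists were chosen with earlier results of these data known. Alternatives were other cell filters, clusterings, scalings, UMI minimums, weights of cells or clusters, thinning, depth classes, class by marker score and removal of doublets.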

Additional observations from a re-analysis of the deposited data

Results flagged for a closer look

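Uqcrb, the ubiquinone-binding protein gene of complex III, differed in direction between classes. Its log2 ratio of MNPQ over control was 0.72 (0.47 to 0.97) in astrocyte-like cells, from 223 and 354 UMIs, and -0.63 (-1.11 to -0.17) in microglia-like cells, from 123 and 57 UMIs. It stood out because the ratios had opposite signs with counting intervals that exclude 0 in both classes. The difference was not tested, since each class had 1 library per group. Within astrocyte-like cells the ratio was 0.83 (0.53 to 1.12) in cells of at least 1000 UMIs. In those under 1000 UMIs it was 0.435, with an interval that includes 0 (-0.03 to 0.90). In neuron-like cells the ratio was 0.32 (-0.17 to 0.82) and in endothelial-like cells 0.09 (-0.21 to 0.40). Oligodendrocyte-like cells had -0.08 (-0.49 to 0.34) and pericyte-like cells 0.35 (-0.19 to 0.90).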

How the results depend on the processing

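Each group had 1 library, so no library could be left out. No paired analysis was possible because there was 1 library per group and no test. The median log2 ratio of the 33 genes kept its sign in astrocyte-like (0.17 to 0.74 over 18 alternatives), neuron-like (0.22 to 0.41 over 17), endothelial-like (0.11 to 0.24 over 15) and all kept cells (0.17 to 0.38 over 17). The astrocyte-like median was 0.74 with cells thinned to 1000 UMIs and 0.17 in cells under 1000 UMIs. Both moves exceeded the distance from a typical gene's ratio to an end of its counting interval. The microglia-like median ran from -0.0409 to 0.13 over 18 alternatives, highest with cells thinned to 1000 UMIs (9 of 12 genes higher). It turned below 0 in 4 of them. It was -0.0275 with the stricter cell filter (500 genes or more, no more than 10% mitochondrial UMIs) and -0.0116 with clustering on all genes. With classes from marker scores it was -0.0409. Scaling to UMIs without mitochondrial, hemoglobin, Malat1, Gm42418 and AY036118 counts gave -0.0142. The oligodendrocyte-like median ran from -0.11 in cells under 1000 UMIs, over 6 genes, to 0.31 with cells thinned to 1000 UMIs, over 13 genes. The pericyte-like one ran from -0.0087 relative to all genes to 0.25 with a minimum of 20 UMIs. The log2 ratio of nuclear to mitochondrially encoded UMIs was 0.64 in astrocyte-like and 0.56 in all kept cells without a cell filter, and 0.15 in all kept cells with the stricter filter, beside 0.59 and 0.25. Turned single ratios were Cox7b in neuron-like cells thinned to 1000 UMIs (-0.0286), Uqcrh in neuron-like cells under 1000 UMIs (-0.0826), in oligodendrocyte-like cells Atp5o with clusters weighted equally (-0.0440) and under 1000 UMIs (-0.56) and Atp5g2 under 1000 UMIs (-0.20), in endothelial-like cells Atp5g2 under 1000 UMIs (-0.16) and Atp5a1 thinned to 500 UMIs (-0.10) and under 1000 UMIs (-0.38), and the median of the biogenesis regulators over all kept cells with at least 20 UMIs (0.0321). The cause was not tested for any of these. Of 830 alternative values for single genes and other lists, 758 stayed within the main ratio's counting interval or, for lists, close to the main median. Another 63 moved further and 9 were counted as turned. A turn was counted only where the main interval excluded 0 or a list's main median lay clearly off 0. Other changes of sign were not counted as turns. Thinning to 1000 UMIs used 440 control and 409 MNPQ cells.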
